A study of Mus musculus with 6 samples.

Results

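The genes described here are 10 regulators of the G1 phase of the cell cycle, chosen by name: the D cyclins CCND1, CCND2 and CCND3, the E cyclins CCNE1 and CCNE2, the kinases CDK4, CDK6 and CDK2, the inhibitor gene CDKN1B and the retinoblastoma gene RB1. Each had 1 row among the 31456 rows of the deposited count table, and 9 of the 10 passed the filter on low counts. The exception was CCND2. The libraries came from HCT116, an established human colorectal carcinoma line, in a parental form (3 libraries) and in a form labelled resistant (3 libraries). The series concerns resistance to oxaliplatin, a platinum drug that forms DNA adducts. The sources used here do not give how the resistant cells were derived, whether they are a clone or a pool, or whether drug was present at harvest. They also do not say that replicates were grown separately, so p-values measure only the spread between libraries, which may be technical.

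In G1, D cyclins bind CDK4 or CDK6 and E cyclins bind CDK2. These kinases phosphorylate the retinoblastoma protein, which then releases E2F transcription factors and allows the genes of S phase to be transcribed. The INK4 proteins bind CDK4 and CDK6, and the CIP/KIP proteins, among them p27 from CDKN1B, bind cyclin-CDK complexes and restrain CDK2. Much of this control acts on proteins, through phosphorylation and timed degradation, and mRNA levels do not measure it. In bulk RNA, a change in the share of cells in a phase and a change in RNA per cell cannot be told apart.

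Library totals ranged from 20246878 to 32138423 counts. Parental replicate 2 stood apart from the other parental libraries on the second principal component, at -38.7 against 14.4 and 26.6. Epithelial markers (EPCAM, KRT8, KRT18, KRT19, CDH1 and CDX2) were present in every library, and VIL1 was nearly absent, with between 0 and 4 counts. The summed level of 6 fibroblast markers was 22.5 to 26.1 CPM (counts scaled to library size and TMM factors) in the parental and 39.3 to 44.9 CPM in the resistant libraries. Nearly all of it was COL1A1, while DCN and LUM had 0 counts in the parental libraries and at most 1 in any resistant library. PDGFRB had 5, 6 and 2 counts in the parental and 17, 13 and 15 in the resistant libraries (edgeR adjusted p = 0.0026), and COL3A1 had 1, 1 and 0 against 5, 11 and 9. The summed level of 6 leukocyte markers was 13.3 to 13.8 CPM against 17.2 to 20.0 CPM, nearly all of it CD68, which rose 1.30-fold (edgeR adjusted p = 0.0013). In the same list ITGAM had 24, 23 and 16 counts against 40, 52 and 42 (edgeR adjusted p = 0.0011), and PTPRC had 0 to 2 counts. The part of these marker genes in the results was not tested.

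The changes in the G1 genes were small and went both ways. RB1, CCNE1 and CCND3 were higher in the resistant cells, CDK4 and CDK6 were lower, and CCND1, CCNE2, CDK2 and CDKN1B did not pass the threshold. That is 5 of 9 tested genes, 3 higher and 2 lower, by the quasi-likelihood test of edgeR at an adjusted p below 0.05. Over all 16605 tested genes the same rule called 53.8%, with 27.3% higher and 26.5% lower, so the share of G1 genes called was close to the background. No G1 gene changed by 1.3-fold, the fitted changes ran from -0.27 to 0.33 on the log2 scale, and the median absolute log2 change over all tested genes was 0.27. The groups did not overlap in CPM for 6 of the 9, against 61.2% of all tested genes. With library sizes alone in place of TMM factors, 7 of the 9 passed, 6 higher and 1 lower, and over all genes the called genes were 65.3% higher in place of 50.8%. The signs of the small changes therefore have to be read relative to the scaling.

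**Figure D1:**
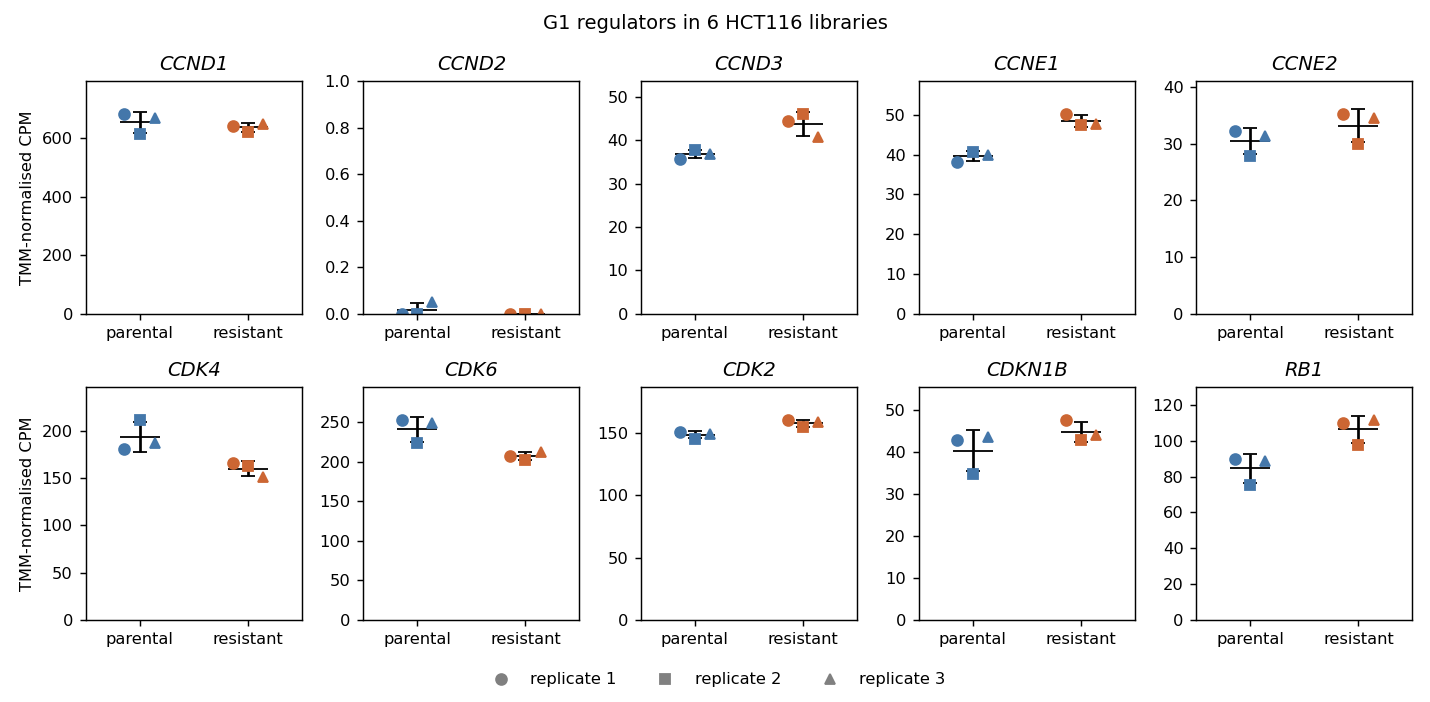
TMM-normalised CPM (y axis, from 0) of the 10 G1 genes in the parental and resistant libraries, with a marker shape for each replicate number and bars for the mean and SD of 3 libraries. RB1, CCNE1 and CCND3 sit higher and CDK4 and CDK6 lower in all resistant libraries, and CCND2 lies at 0 in 5 of 6 libraries.

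Among the D cyclins, CCND1 (ENSG00000110092.3), the D cyclin best known as a target of growth factor and Wnt signalling, was highly expressed in both forms. In the order of replicates 1, 2 and 3, which is kept throughout, its CPM were 681, 613 and 669 in the parental and 640, 621 and 650 in the resistant libraries. The groups overlapped, with parental replicate 2 below every resistant library. The log2 fold change was -0.04 ± 0.05 (SE), with a 95% interval of -0.15 to 0.07 and an edgeR adjusted p of 0.52, and it was 0.05 with library sizes alone (adjusted p = 0.40) and -0.08 without parental replicate 2 (adjusted p = 0.052). The interval does not reach a 1.2-fold change in either direction.

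CCND3 (ENSG00000112576.12), the D cyclin used widely in differentiating and lymphoid cells, rose 1.19-fold. Its CPM were 35.7, 37.6 and 36.9 in the parental and 44.5, 46.0 and 40.7 in the resistant libraries. Every resistant library lay above every parental one, and resistant replicate 3 was the closest to them. On the log2 scale the rise was 0.25 ± 0.06 (SE) and passed the edgeR threshold (adjusted p = 0.0038). The call was lost on the deposited length-scaled values when no low-value filter was applied (limma adjusted p = 0.062), and its adjusted p otherwise ran down to 3.9e-04.

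CCND2 (ENSG00000118971.8), the remaining D cyclin, had 1 count in all, in parental replicate 3. The other 5 libraries had 0. The 1 count allows up to 4.74 counts (exact Poisson, one-sided 95%), or 0.0595 CPM over the pooled parental libraries. The count of 0 allows up to 3 counts, or 0.0387 CPM over the pooled resistant libraries, both for counting error only. The 2 forms could not be compared at this depth. The antisense row CCND2-AS1 had 1 count in total.

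Levels of different genes can be set side by side only per length. On the deposited length-scaled scale, taken here as FPKM, CCND1 had 177 ± 9.48 FPKM in the parental and 170 ± 4.31 FPKM in the resistant libraries (SD, n = 3), and CCND3 had 23.1 ± 1.05 and 27.5 ± 1.94 FPKM. CCND3 made up 11.4%, 11.5% and 11.8% of the summed D cyclin level in the parental libraries, and 14.3%, 14.8% and 12.7% in the resistant libraries. The difference of 2.37 percentage points gave p = 0.10 in an exact two-sided permutation test, the smallest value 3 against 3 libraries allow (0.30 adjusted over 3 such shares). The summed D cyclin level was 200 ± 10.5 FPKM in the parental and 198 ± 3.54 FPKM in the resistant libraries (SD, n = 3, exact permutation p = 0.90).

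CDK4 and CDK6, the kinase partners of the D cyclins, both fell. CDK4 (ENSG00000135446.17) had 181, 211 and 188 CPM in the parental and 166, 163 and 151 CPM in the resistant libraries. All resistant libraries were below all parental ones, and parental replicate 2 was the highest of the 6. CDK4 fell by 0.27 ± 0.06 (SE) on the log2 scale (1.21-fold, edgeR adjusted p = 0.0027), and by 0.20 without parental replicate 2 and 0.18 with library sizes alone, both past the threshold. On FPKM the CDK4 call was lost, with limma adjusted p-values of 0.12 to 0.26 against a range of 6.3e-07 to 0.26 over all its alternatives. The FPKM were 138, 166 and 132 in the parental and 137, 123 and 110 in the resistant libraries, where the groups overlapped.

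CDK6 (ENSG00000105810.9) had 252, 223 and 249 CPM in the parental and 207, 202 and 213 CPM in the resistant libraries. Here parental replicate 2 was the lowest of its group and still above each resistant library. CDK6 fell by 0.22 ± 0.05 (SE) on the log2 scale (1.16-fold, edgeR adjusted p = 0.0044). With library sizes alone the fall was 0.12 and did not pass (adjusted p = 0.081, where the lowest over the alternatives was 1.6e-05). It also missed the threshold on FPKM without a filter (limma adjusted p = 0.072).

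Per length, CDK4 was the more abundant of the pair, at 146 ± 18.5 FPKM against 23.3 ± 1.22 FPKM for CDK6 in the parental libraries (SD, n = 3). CDK6 made up 13.9% ± 1.98 of the summed level of the pair in the parental and 14.3% ± 1.32 in the resistant libraries (SD, n = 3, exact permutation p = 0.80). The difference of 0.34 percentage points changed sign to -0.81 without parental replicate 2 and to -0.28 without resistant replicate 3. No shift between the kinases could be resolved. The summed FPKM of CDK4 and CDK6 was 169 ± 17.4 in the parental and 144 ± 13.5 in the resistant libraries (SD, n = 3, exact permutation p = 0.20).

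**Figure D2:**
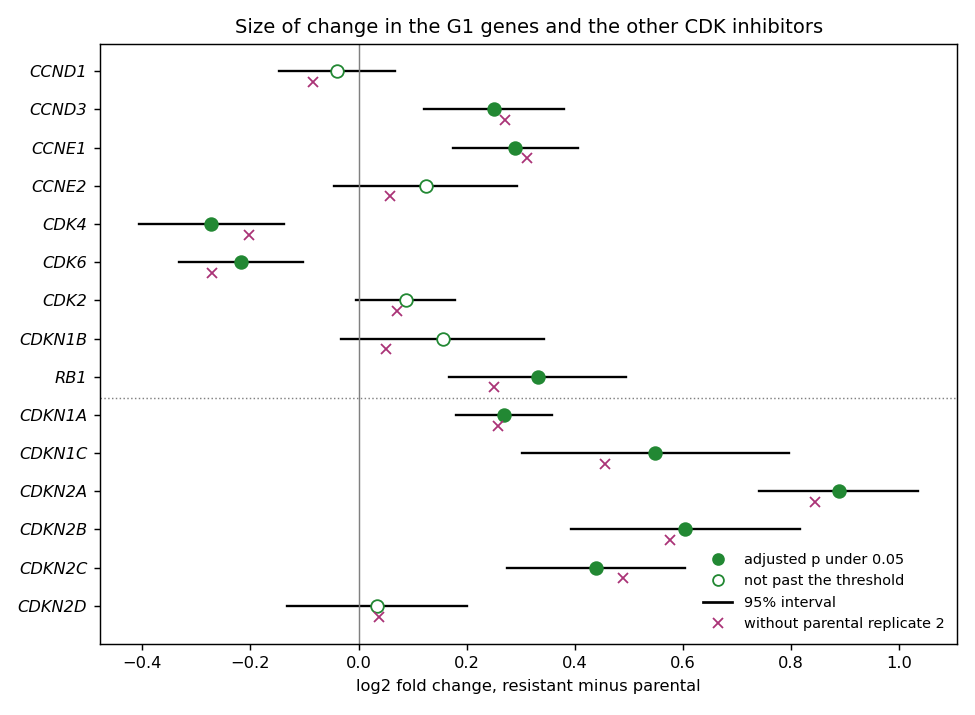
Fitted log2 fold change (x axis, resistant minus parental) of the 9 tested G1 genes, above the dotted line, and of the 6 other CDK inhibitor genes, with 95% intervals, filled points for an adjusted p under 0.05 and crosses for the fit without parental replicate 2. CDK4 and CDK6 are the only genes shown with an interval wholly below 0, and CDKN2A has the highest fitted value, 0.89.

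The E cyclins activate CDK2 at the G1 to S transition. CCNE1 (ENSG00000105173.14) rose 1.22-fold, with 38.1, 40.6 and 40.0 CPM in the parental and 50.1, 47.4 and 47.7 CPM in the resistant libraries. The gap between the groups was wider than the spread within either. On the log2 scale the rise was 0.29 ± 0.05 (SE, adjusted p = 6.6e-04 by edgeR), and the call held under all 16 alternatives, with values of 0.25 to 0.38.

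CCNE2 (ENSG00000175305.17), the paralog of CCNE1, had 32.2, 27.9 and 31.5 CPM in the parental and 35.2, 29.9 and 34.5 CPM in the resistant libraries. Replicate 2 was the lowest library of each group, and the groups overlapped. The log2 fold change was 0.12 ± 0.08 (SE), with a 95% interval of -0.04 to 0.29 and an edgeR adjusted p of 0.20, and it was 0.06 without parental replicate 2 and 0.20 without resistant replicate 2 (adjusted p = 0.053). With library sizes alone it was 0.22 and passed the threshold (adjusted p = 0.041).

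CCNE1 made up 59.9% ± 3.56 of the summed E cyclin FPKM in the parental and 63.1% ± 1.56 in the resistant libraries (SD, n = 3, exact permutation p = 0.30). The parental shares were 56.7%, 63.8% and 59.2%, so parental replicate 2 reached the resistant range of 61.6% to 64.7%. Without that library the difference was 5.14 percentage points in place of 3.22. A change in CCNE1 that CCNE2 did not share was therefore not shown. The summed E cyclin level was 44.9 ± 2.69 FPKM in the parental and 52.8 ± 2.68 FPKM in the resistant libraries, with no overlap (SD, n = 3, exact permutation p = 0.10).

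CDK2 (ENSG00000123374.11), the kinase partner of the E cyclins, had 151, 145 and 149 CPM in the parental and 160, 155 and 159 CPM in the resistant libraries. The groups did not overlap, but the gap was small. The log2 fold change of 0.09 ± 0.04 (SE), 95% interval -0.0041 to 0.18, missed the threshold (edgeR adjusted p = 0.098). It was 0.18 with library sizes alone (adjusted p = 0.0041) and 0.13 with a trend on gene length removed (adjusted p = 0.016), both past it.

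RB1 (ENSG00000139687.15), whose protein holds E2F factors inactive until it is phosphorylated, rose 1.26-fold. The levels were 89.7, 75.3 and 88.7 CPM in the parental and 110, 97.8 and 111 CPM in the resistant libraries. Replicate 2 was the lowest library of each group, and the groups did not overlap. On the log2 scale the rise was 0.33 ± 0.07 (SE, adjusted p = 0.0032 by edgeR), and 0.25 without parental replicate 2. Its adjusted p ranged from 2.2e-07 to 0.030 over the alternatives. The divergent row RB1-DT had at most 2 counts in any library, and LPAR6, a gene nested in an RB1 intron, had at most 3.

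CDKN1B (ENSG00000111276.11), which encodes the CDK inhibitor p27, had 42.8, 34.6 and 43.5 CPM in the parental and 47.5, 42.8 and 44.0 CPM in the resistant libraries. Parental replicate 2 was far below the other parental libraries, which overlapped the resistant ones. The log2 fold change was 0.16 ± 0.08 (SE), with a 95% interval of -0.03 to 0.34 and an edgeR adjusted p of 0.15. Without parental replicate 2 it was 0.05 (adjusted p = 0.46), and with library sizes alone it was 0.25 (adjusted p = 0.039).

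The library that stood apart therefore moved the G1 genes unequally. On the log2 scale parental replicate 2 differed from the mean of the other parental libraries by 0.20 for CDK4, -0.31 for CDKN1B, -0.24 for RB1, -0.19 for CCNE2, -0.17 for CDK6 and -0.14 for CCND1. It differed by 0.06 or less in size for CCND3, CCNE1 and CDK2. Over 11813 genes with a mean of at least 5 CPM, its median difference was 0.05 in the class of the shortest genes and -0.04 in the class of the longest. The median change between resistant and parental libraries was -0.09 and 0.04 in those classes. The part of gene length in the results was not tested beyond the fit that removes a trend on it, in which CDK4 fell by 0.21, CDK6 fell by 0.29 and RB1 had a log2 fold change of 0.30. Those 3 calls held without parental replicate 2 and in that fit.

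**Figure D3:**
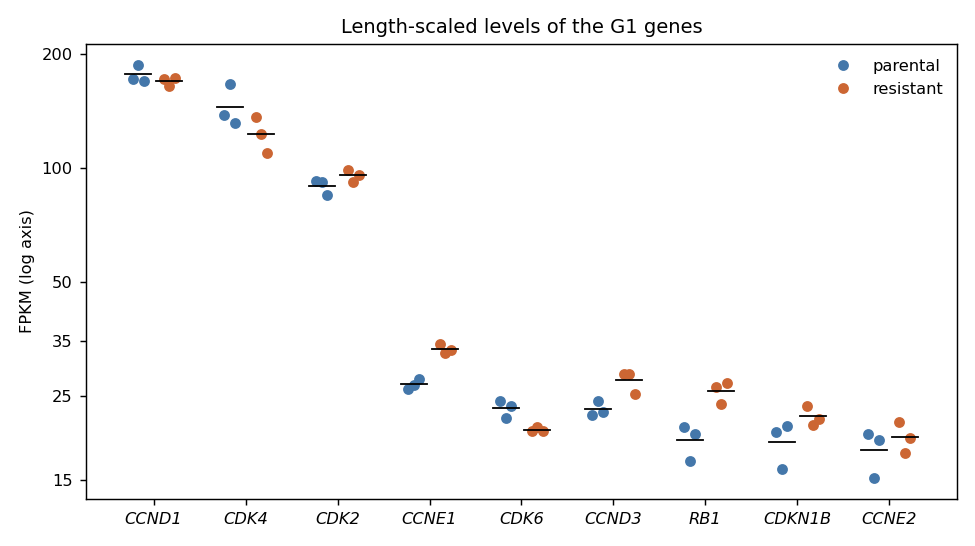
FPKM (log axis) of the 9 detected G1 genes, ordered by parental mean, with a point per library and a bar for the mean of 3 libraries. CCND1, CDK4 and CDK2 lie above 80 FPKM and the other 6 genes below 35 FPKM in every library.

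The order of the length-scaled levels was CCND1, CDK4, CDK2 and CCNE1 from the top in both forms, and the ranges of neighbours among these genes did not overlap within a form. CDK2 had 89.7 ± 4.14 FPKM in the parental and 95.8 ± 3.76 FPKM in the resistant libraries (SD, n = 3). Below CCNE1 (26.9 ± 0.896 and 33.3 ± 0.880 FPKM) the levels lay close together. In the parental libraries CDK6 and CCND3 overlapped, as did RB1, CDKN1B and CCNE2, at 19.1, 19.0 and 18.1 FPKM. In the resistant libraries CCND3 (27.5 FPKM) overlapped RB1 (25.8 FPKM), and CDK6 (20.4 FPKM) overlapped CCNE2 (19.5 FPKM). CDK6 held rank 5 in the parental and rank 8 in the resistant order, below RB1 and CDKN1B, whose resistant ranges of 23.8 to 27.2 and 21.0 to 23.6 FPKM lay above its own of 20.2 to 20.8.

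The inhibitor genes outside the 10 were mostly higher in the resistant cells. Of 6 INK4 and CIP/KIP genes 5 rose and none fell, which is 83.3% called beside 53.8% of all tested genes (27.3% higher), with a median log2 fold change of 0.49 beside 0.02 over all tested genes. The counts were the same with library sizes alone and without each library in turn. CDKN2A (ENSG00000147889.17), which encodes the CDK4 and CDK6 inhibitor p16 and, in another reading frame, ARF, had 21.5, 21.0 and 24.6 CPM in the parental and 41.7, 39.8 and 42.2 CPM in the resistant libraries. It rose 1.85-fold (log2 fold change 0.89 ± 0.07 SE, edgeR adjusted p = 5.9e-07). A count per gene does not separate its p16 and ARF transcripts.

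CDKN2B, the p15 gene beside CDKN2A, rose 1.52-fold from 5.81 ± 0.234 to 8.83 ± 0.601 CPM (SD, n = 3). Its antisense neighbour CDKN2B-AS1 rose 1.39-fold, and since the strand setting of the counting is not given, reads of the 2 cannot be told apart. The CDKN2B-AS1 call was lost on FPKM (limma adjusted p = 0.081 to 0.18, against 0.0013 at the low end of its range). CDKN2C, the p18 gene, rose 1.36-fold from 12.7 ± 1.01 to 17.2 ± 0.613 CPM. CDKN2D, the p19 gene, had 13.0 ± 0.855 and 13.3 ± 0.580 CPM, with a log2 fold change of 0.03 (edgeR adjusted p = 0.73).

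CDKN1A, the p21 gene and a p53 target, was the most counted inhibitor gene and rose 1.20-fold from 208 ± 2.84 to 250 ± 4.29 CPM (SD, n = 3, edgeR adjusted p = 1.7e-04). CDKN1C, the p57 gene, rose 1.46-fold from 5.60 ± 0.781 to 8.19 ± 0.0842 CPM (edgeR adjusted p = 0.0015). CDKN1B was thus the CIP/KIP gene that did not pass the threshold. Whether its change differs from those of CDKN1A and CDKN1C was not tested.

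Pocket proteins and E2F factors went both ways, with 4 of 12 higher, 4 lower and 4 not past the threshold (66.7% called, 53.8% of all tested genes), and a median log2 fold change of -0.0087. RBL2, which encodes the RB relative p130, rose 1.57-fold from 51.1 ± 2.05 to 80.1 ± 1.70 CPM (SD, n = 3, edgeR adjusted p = 6.2e-07). RBL1, the p107 gene, was also higher (1.26-fold), so all 3 pocket protein genes rose. RBL1, E2F1, E2F2, E2F3, E2F4, E2F5, E2F6 and E2F7 are named here after their values were seen. The dimerisation partners of E2F diverged. TFDP1 fell 1.31-fold from 278 ± 6.19 to 212 ± 3.81 CPM. TFDP2 rose 1.42-fold on counts, while on FPKM the log2 fold change was 0.22 and the call was lost (limma adjusted p = 0.34 to 0.50 against 1.8e-15 at the low end of its range). Of the activator E2F genes, E2F3 fell by 0.23 on the log2 scale, while E2F1 and E2F2 had log2 fold changes of 0.05 and 0.02 and did not pass the threshold. Of the repressor E2F genes, E2F7 rose 1.34-fold, and E2F4 and E2F8 fell by 0.40 and 0.47 on the log2 scale, and E2F5 and E2F6 did not pass the threshold.

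Of 11 measured genes for other cyclins, kinases and their regulators around S entry 2 rose, 5 fell and 4 missed the threshold (63.6% called, 53.8% of all tested genes). The median log2 fold change was -0.10, and 3 rose and 4 fell with library sizes alone. CCNA2, the A cyclin that follows the E cyclins as partner of CDK2, fell 1.69-fold from 177 ± 3.83 to 105 ± 6.24 CPM (SD, n = 3, edgeR adjusted p = 2.0e-07). CDC25A, the phosphatase that activates CDK2, fell by 0.48, the CDK-inhibiting kinase gene WEE1 by 0.44 and the p53 target CCNG1 by 0.29 on the log2 scale. Only 1 was called higher when parental replicate 2 was left out, or either of resistant replicates 1 and 3, and 3 were when each of the other libraries was.

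The list around the ubiquitin ligases that degrade G1 cyclins and p27 also holds the deubiquitinase genes USP2 and USP28, and COPS5. Its genes were called about as often as all tested genes (60% beside 53.8%). Of 15, 2 were higher, 7 lower and 6 not past the threshold, with a median log2 fold change of -0.18. With library sizes alone 3 were higher and 5 lower. USP2, not a ligase gene, was among the 7 lower (log2 fold change -0.45, edgeR adjusted p = 0.0055). USP28 and COPS5 did not pass the threshold. USP2, USP28 and COPS5 are named here after their values were seen. CUL1, the scaffold of the SCF ligases, fell 1.51-fold from 127 ± 2.22 to 84.1 ± 1.53 CPM (SD, n = 3, edgeR adjusted p = 3.7e-07). CKS2 fell by 0.49 and RNF123, a ligase subunit for p27, by 0.52 on the log2 scale. CKS1B, in the same list, had a log2 fold change of -0.10 and did not pass the threshold (edgeR adjusted p = 0.089). It is named here after its value was seen. FBXO31, an F-box gene linked to cyclin D1 turnover, fell by 0.27, while on FPKM the value was -0.13 and the call was lost (limma adjusted p = 0.36 to 0.50, against 9.2e-06 at the low end of its range). SKP2, the F-box gene for p27, was 1.11-fold higher, and this gene was named after its value was seen. Without parental replicate 3 none of the 15 was called higher, and without parental replicate 1 or any 1 resistant library 1 was.

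The MuvB and DREAM list holds parts of complexes that repress cell cycle genes in G0 and G1. It also holds MYBL2 and FOXM1, which act with MuvB to activate such genes later in the cycle. Of its 8 genes 3 rose, 1 fell and 4 missed the threshold (50% called, 53.8% of all tested genes), with a median of -0.02. MYBL2 did not pass the threshold and is named here after its value was seen. RBBP4 rose 1.30-fold and LIN52 1.24-fold. LIN54 had a log2 fold change of 0.16 that lost its call in 10 of 16 alternatives (edgeR adjusted p = 0.028, range 0.0030 to 0.12), among them the fits without each library except parental replicate 3. FOXM1, which drives mitotic genes, fell by 0.26 on the log2 scale. On FPKM without a filter the value was -0.20 and the call was lost (limma adjusted p = 0.071).

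Of 28 E2F target genes of S entry 4 rose, 12 fell and 12 missed the threshold, and the 57.1% called was close to the 53.8% of all tested genes. Their median log2 fold change was -0.10, and with library sizes alone 7 rose and 9 fell. CHEK1, the checkpoint kinase gene, fell 1.81-fold from 84.6 ± 4.60 to 46.8 ± 2.85 CPM (SD, n = 3, edgeR adjusted p = 3.0e-07). MCM5, a subunit of the replicative helicase, fell 1.38-fold (limma adjusted p = 0.056 on FPKM without a filter, the highest over its alternatives). CCNA2 belongs to this list too.

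Among 14 regulators of D cyclin and p27 transcription 3 rose, 7 fell and 4 missed the threshold (71.4% called, 53.8% of all tested genes, 26.5% lower), with a median log2 fold change of -0.15 and 5 higher and 7 lower with library sizes alone. MYC fell 1.86-fold and TCF7L2, the Wnt pathway factor, fell 1.96-fold from 187 ± 13.2 to 95.4 ± 3.38 CPM (SD, n = 3, edgeR adjusted p = 6.0e-08). ETS2 fell 2.13-fold, and JUN, an AP-1 subunit, rose 2.15-fold from 30.2 ± 1.11 to 65.1 ± 0.968 CPM. CCND1, whose promoter is known to be bound by TCF and AP-1 factors, stayed within the interval given above.

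**Figure D4:**
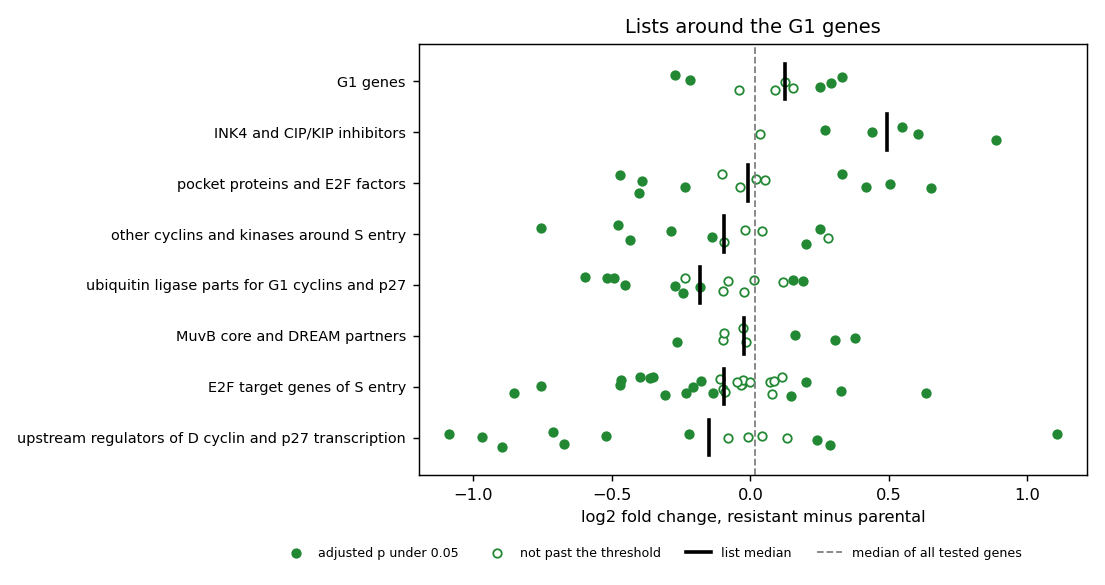
Fitted log2 fold change (x axis) of each tested gene in the G1 group and 7 lists around it, with filled points for an adjusted p under 0.05, a black bar for the list median and a dashed line for the median of all tested genes, 0.02. The CDK inhibitor list has its median at 0.49, while the medians of the other 6 lists lie between -0.18 and -0.0087.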

How the data were processed

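Bulk RNA-seq of 6 HCT116 libraries was used. The authors deposited whole-number read counts for each gene, without normalization. A second deposited table was taken as FPKM computed by the authors, an inference from its values, since per the file headers no unit is named. Per the labels' protocols, a SMARTER mRNA-Seq kit was used on total RNA. Not given in the sources used here are the aligner, counter, annotation and strand setting. The labels name mouse and the submitters' processing notes GRCm38 and mm10, but the rows carry human Ensembl identifiers. A mouse reference does not suit such rows, so coordinates and sequences are left out.

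The test was edgeR 4.0.16 in R 4.3.3 (TMM, filterByExpr, robust glmQLFit, glmQLFTest, two-sided, Benjamini-Hochberg over all tested rows, threshold 0.05), tested on simulated data. The SE is the log2 fold change divided by the square root of F, and 95% intervals use the same error. Alternatives used DESeq2 1.42.0, limma 3.58.1 on log2(FPKM + 1) or log2(FPKM + 0.1), RLE or no factors, other filters, a replicate block and each library left out. A fit with a loess trend on a length proxy (CPM per FPKM) removed was added after seeing the data. Floors are 3 counts, 0.0933 to 0.148 CPM per library.

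The members and lists were chosen with earlier results of these data known, and no set test was made. All inhibitor genes and up to 4 genes per other list, by smallest adjusted p, are named, plus those said to be named after their values were seen. The values of 1 gene under this rule are not reported here. The 8 lists hold 105 symbols, of which 6 had no row here and were not analysed. The list of antisense, divergent or nested genes had 1 tested row, CDKN2B-AS1.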

Additional observations from a re-analysis of the deposited data

How the results depend on the processing

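Of 624 values of 39 named genes under 16 alternatives, 587 kept their direction and side of the threshold, 27 lost a call, 7 gained one and 3 changed sign. The sign changes were CCND1 with library sizes alone (0.054) and CDKN2D without parental replicate 1 or resistant replicate 1 (leave-one-out range -0.022 to 0.068), neither called. The number of G1 genes called was 5 without each library in turn, 2 on FPKM with no filter and 8 with the replicate block. The number of all genes called was 7666 to 9209 without each library and 5290 on FPKM with no filter. In that setting 5 genes of the ubiquitin ligase list (9 on counts) and 2 of the MuvB and DREAM list (4 on counts) were called. The CCND3 share differed by 1.10 percentage points on raw counts and by 1.95 to 2.97 on FPKM without each library, the CCNE1 share by 1.64 to 5.14 and the CDK6 share by -0.81 to 1.04. The cause was not tested. The labels do not say whether the replicate numbers pair the libraries. Deviations of same-numbered libraries correlated at 0.08, 0.10 and 0.0051 across genes, and 3 libraries a group are too few to settle a pairing. The block raised the count of all genes called from 8933 to 9973 and added CDK2, CCNE2 and CDKN1B (edgeR adjusted p = 0.041, 0.043 and 0.019). Parental replicates 1 and 3 both correlated best with resistant replicate 1, and parental replicate 2 with resistant replicate 2. At 3 libraries a group, differences near 0.1 on the log2 scale in genes of 30 to 45 CPM were not resolved.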

Other observations

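The deposited counts and the deposited length-scaled values disagreed on CCND1 in 1 library. Parental replicate 2 had the lowest CCND1 level in CPM (613) and the highest in FPKM (188, against 165 to 173 in the other 5 libraries). The ratio of CPM (on library totals) to FPKM was 3.13 for CCND1 in that library and 3.81 to 3.87 in the others, that is 81.2% of their median. Of 11808 genes with a mean of at least 5 CPM, 4.98% had a ratio in parental replicate 2 as low as this relative to the other libraries, and the median was 97.6%. For RB1, CDKN1B and CCNE1 the ratio in parental replicate 2 was 101%, 99.0% and 97.9% of the median of the others, and for CDK2 and CDK4 it was 89.0% and 89.6%.

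By the Euclidean distance of centred log2 CPM over the 6 libraries, the 3 genes most like RB1 among 11625 were SLC33A1, SPTSSA and SIKE1, at distances of 0.05. The 3 most like CDK4 were PRKCSH, SIL1 and POLR2E, at distances of 0.04. The log2 fold changes were 0.31 to 0.34 for the first 3 and -0.30 to -0.25 for the latter 3. That these lie near the changes of RB1 and CDK4 follows from the choice by distance over the same libraries. RB1 and CDK4 were taken as the called G1 genes with the largest rise and the largest fall.

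Within the resistant group replicate 2 had the lowest level of 7 of the 9 detected G1 genes, and within the parental group replicate 2 had the lowest level of 6 of 9.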
